A study of Homo sapiens with 4 samples.

Results

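The nuclear genes for the subunits of the mitochondrial respiratory chain were measured in HEK293, an established line of human embryonic kidney cells transformed with adenovirus DNA, often used to express receptors from cloned genes. The members were set by a rule on gene symbols, chosen with earlier results of these data known. It took every named gene whose current RefSeq symbol begins with NDUFA, NDUFB, NDUFC, NDUFS or NDUFV and a digit. It also took symbols that begin with UQCR, with ATP5, or with COX and a digit from 4 to 8, and SDHA to SDHD. The members were 82 of the 17217 genes that could be named on the array, with 288 probes in 96 targets. Complex I had 36 of them, complex II 4, complex III 8, complex IV 17 and complex V 17. A further 5 protein-coding genes with matching symbols had no matched probe and were not analysed here.

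All 4 samples were replicates of 1 untreated group of cells kept in standard growth medium, from separate culture plates with separate RNA extractions, and there was no second condition. The array carried long NimbleGen probes and was hybridised in 1 colour with Cy3-labelled cDNA, whose synthesis from total RNA started at an oligo(dT) primer. The labelled kidney origin was checked against markers. In the mean, none of 10 kidney tubule and podocyte genes was above the detection baseline, nor were 4 of 10 kidney development factors and 3 of 8 neuronal cytoskeleton genes. The 6 of 10 and 5 of 8 above it are shares near the 52.7% of all named genes.

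The respiratory chain moves electrons from NADH and succinate to oxygen and stores the energy as a proton gradient across the inner mitochondrial membrane. Complex I (NADH dehydrogenase) and complex II (succinate dehydrogenase, also an enzyme of the citric acid cycle) pass electrons to ubiquinone, complex III passes them to cytochrome c, complex IV (cytochrome c oxidase) passes them to oxygen, and complex V (ATP synthase) uses the gradient to make ATP. All complexes but complex II also hold subunits encoded in mitochondrial DNA, and several complex IV subunits exist in a broadly expressed form and in forms typical of heart and skeletal muscle, lung or testis.

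A gene's level here is a log2 probe signal. Its distance is that level minus a baseline, which was set on each array as the mean plus 2 SD of 10 seminal protein genes that the study took as not transcribed in these cells. Detected means that a gene's distance, averaged over the 4 arrays, exceeded 0. Every probe binds with its own strength, so distances place a gene above or below the baseline but do not rank the amounts of different transcripts. On replicates 1 to 4 the baselines were 9.47, 9.94, 10.69 and 10.32 log2 units. The deposited values of replicates 1 and 2 had 1 shared distribution and those of replicates 3 and 4 another, so the arrays stood apart in these pairs, and counts are also given for each pair alone.

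Of the 82 respiratory chain genes, 71 (86.6%) were detected, against 52.7% of all named genes. Above the baseline on all 4 arrays were 67 members, against 45.0% of all named genes. The one-sided limma test of the distance against 0, with Benjamini-Hochberg adjustment over all 17217 genes, called 68 members, against 45.9% of all named genes. The median distance of the members was 3.04 log2 units, against 0.26 over all named genes. It moved with the baseline, from 1.72 with 3 SD to 5.36 with SPATA5 and SPATA13 left out of the controls. With replicates 1 and 2 alone 72 members were detected, and with replicates 3 and 4 alone 68. The share of all named genes was not computed for each pair alone. On single arrays, replicates 1 to 4, it was 58.1%, 54.2%, 47.4% and 50.2%, beside 73, 71, 67 and 69 members above the baseline. Many of the members have processed pseudogenes (185 RefSeq pseudogenes have symbols of the same pattern), and hybridisation of their transcripts to these probes was not tested.

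The complexes differed mainly in where their undetected members lay. Complex III had all 8 of its members detected, with a median distance of 2.91 log2 units. Complex I had 35 of 36, with a median of 2.67. Complex II had 3 of 4, with a median of 3.09. Complex V had 14 of 17, with a median of 3.55. Complex IV had the lowest share, 11 of 17, with a median of 3.36, and all 6 of its undetected members were alternative isoforms. Without those 6 genes complex IV had 11 of 11 members detected with a median of 4.26, and the whole chain had 71 of 76 (93.4%). COXFA4 (formerly NDUFA4), a complex IV subunit outside the symbol rule, is not in these counts and was below the line. These shares describe the genes on these arrays, and the complexes were not tested against each other.

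**Figure D1:**
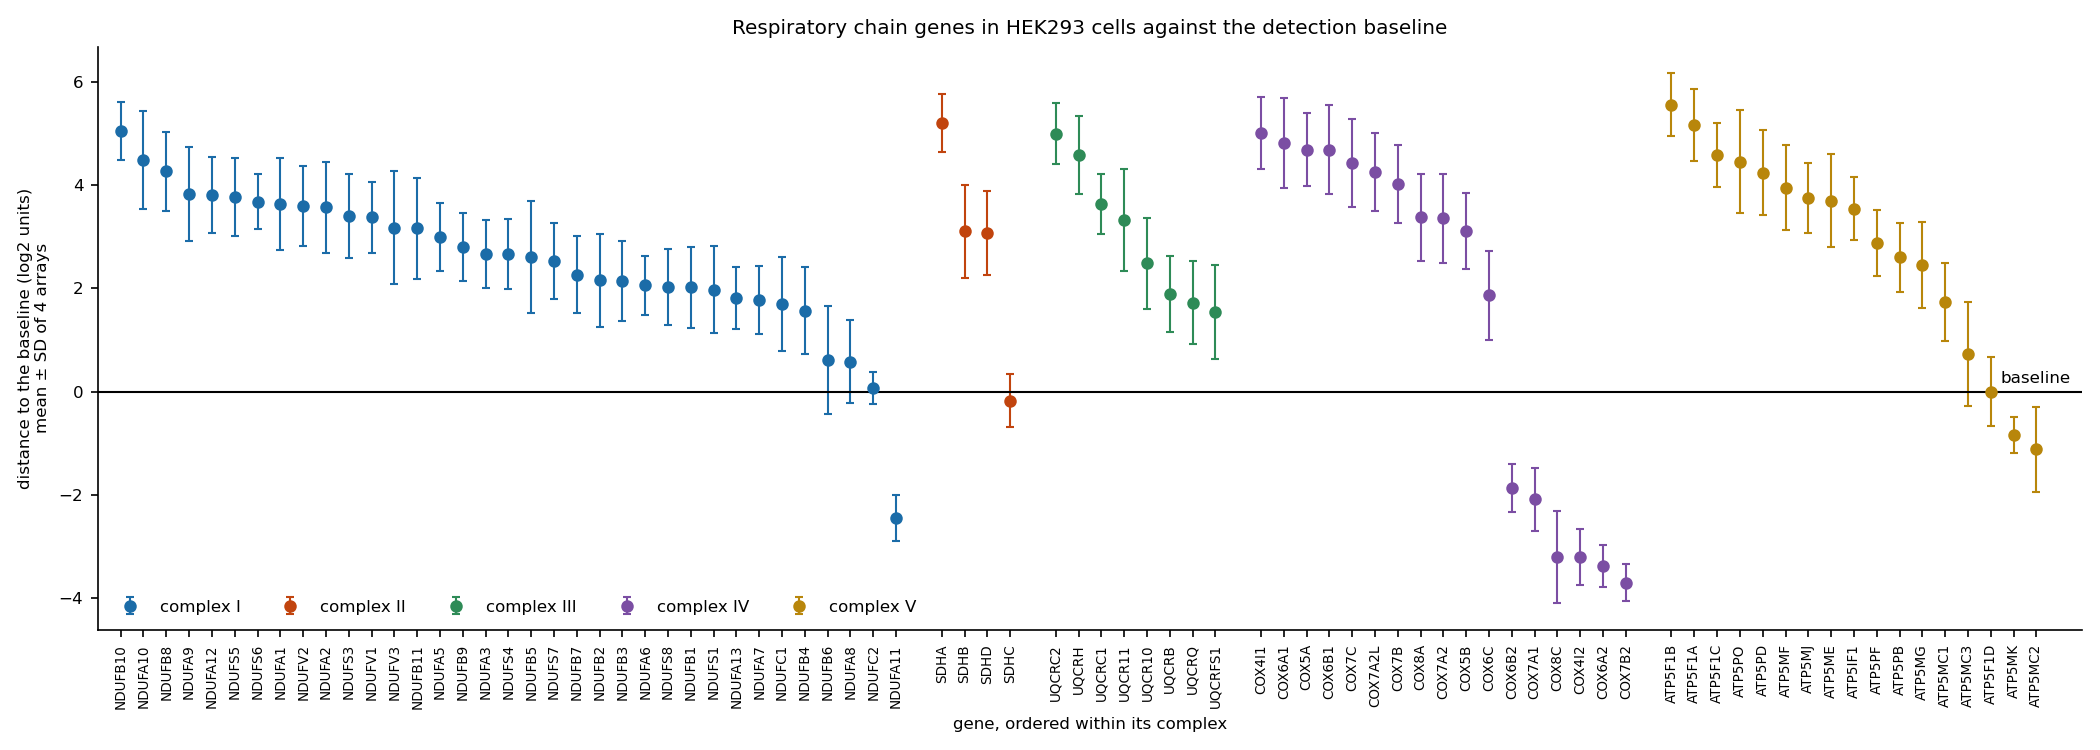
Distance to the detection baseline (log2 units, vertical axis) of 81 of the 82 respiratory chain genes, grouped and coloured by complex and ordered within it. Points are means and bars are SD over 4 arrays, and the line at 0 is the baseline. In complex IV, 11 genes lie above the line and the 6 alternative isoforms lie below it, from -3.71 to -1.87.

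Complex I has a peripheral arm, where NADH is oxidised, and a membrane arm that pumps protons. The core subunits described here, of the arm that carries its flavin and iron-sulphur clusters, were each above the baseline on 4 of 4 arrays. In order of mean distance these were NDUFV2 at 3.60 ± 0.78 log2 units (SD, n = 4), NDUFS3 at 3.41 ± 0.81, NDUFV1 at 3.38 ± 0.69, NDUFS7 at 2.53 ± 0.73, NDUFS8 at 2.02 ± 0.74 and NDUFS1 at 1.98 ± 0.84. Most other members of complex I are accessory subunits. The highest of these was NDUFB10, a subunit of the membrane arm, with distances of 5.70, 5.32, 4.44 and 4.75 on replicates 1 to 4.

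NDUFA11, an accessory subunit of the membrane arm, was the single complex I member not detected. Its distances were -2.00, -3.04, -2.28 and -2.48 on replicates 1 to 4, with a mean of -2.45 ± 0.44 (SD, n = 4). It lay below the baseline on every array, and so did the mean of each of its 3 probes, between -3.12 and -2.15. Other complex I members lay near the line. NDUFC2, a small membrane arm subunit, had distances of 0.51, -0.02, -0.19 and -0.04, and its mean of 0.07 ± 0.31 did not pass the limma test (adjusted p = 0.816). NDUFB6 had 1.88, 1.05, -0.27 and -0.21, so that replicates 1 and 2 were above the line and replicates 3 and 4 below it (adjusted p = 0.088). NDUFA8 had 1.65, 0.57, -0.29 and 0.42, above the line on 3 of 4 arrays (adjusted p = 0.103).

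Complex II is the smallest complex and is encoded wholly in the nucleus. SDHA, the flavoprotein that oxidises succinate, had distances of 5.97, 5.29, 4.74 and 4.85 on replicates 1 to 4. SDHB, the iron-sulphur subunit, had a mean distance of 3.11 ± 0.90 (SD, n = 4). Its membrane anchors parted: SDHD had a mean of 3.07 ± 0.81 and was above the line on 4 of 4 arrays, whereas SDHC had 0.48, -0.76, -0.08 and -0.34, a mean of -0.17 ± 0.52. SDHC lay within 1 log2 unit of the baseline on every array, and its side changed with the array. It also changed with the baseline, with mean distances of 1.14 at 1 SD, 2.15 with SPATA5 and SPATA13 left out of the controls, 1.88 with Y-linked controls and 1.91 with olfactory receptor controls, so that complex II had 4 of 4 members detected under these.

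In complex III the core proteins UQCRC1 and UQCRC2 had mean distances of 3.63 ± 0.58 and 5.00 ± 0.59 (SD, n = 4). UQCRFS1, the Rieske iron-sulphur protein, was the lowest member of this complex in distance, with 2.49, 2.17, 0.68 and 0.83 on replicates 1 to 4. All 8 members were above the baseline on all 4 arrays. UQCRH, the hinge protein that helps cytochrome c to dock, was at 4.58 ± 0.76. CYC1 (cytochrome c1), a complex III subunit whose symbol the rule does not match, was at 3.73 ± 0.62, and CYCS, the cytochrome c that carries electrons on to complex IV, was at 0.49 ± 0.73 and did not pass the limma test (adjusted p = 0.172).

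Complex V members form the catalytic head, the rotor, the stalk that holds the head still, and the membrane part. In the head, ATP5F1B, the beta subunit that makes ATP, had distances of 6.29, 5.81, 4.96 and 5.17 on replicates 1 to 4, the highest mean of all 82 members (5.56 ± 0.61, SD, n = 4). The alpha subunit ATP5F1A was at 5.17 ± 0.70 and the gamma subunit ATP5F1C, the shaft of the rotor, at 4.59 ± 0.63. The delta subunit ATP5F1D, at the foot of that shaft, lay at the line, with 0.88, 0.14, -0.41 and -0.61 and a mean of -0.00 ± 0.66. ATP5IF1, the inhibitor of ATP hydrolysis by the enzyme, was at 3.55 ± 0.62. The stalk subunits ATP5PO, ATP5PD, ATP5PF and ATP5PB were detected, with mean distances from 2.60 to 4.46.

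The c subunits of the ATP synthase rotor ring are made from 3 genes, ATP5MC1, ATP5MC2 and ATP5MC3, whose mature proteins are the same. They did not fall on 1 side of the line. ATP5MC1 had distances of 2.43, 2.27, 0.82 and 1.40 on replicates 1 to 4, and ATP5MC2 had -0.60, -0.66, -2.36 and -0.87. ATP5MC1 was above and ATP5MC2 below the baseline on 4 of 4 arrays, but the targets of ATP5MC1 disagreed in size, 1 with a mean distance of 3.37 and the other with 0.09. ATP5MC3 had 1.27, 1.73, -0.57 and 0.47, a mean of 0.73 ± 1.01 (SD, n = 4) that passed the limma test (adjusted p = 0.042). This call was lost after joint normalization (adjusted p = 0.0637), with the trend and robust prior (adjusted p = 0.074) and without replicate 1, 2 or 4 (adjusted p = 0.146, 0.385 and 0.0765), and the mean distance turned to -0.59 with a baseline of 3 SD. ATP5MK, a small subunit linked to dimers of the enzyme, was below the line on every array, with -0.76, -0.43, -1.28 and -0.92. ATP5MC2, ATP5MK and ATP5F1D were above the line in the mean with a baseline of 1 SD, at 0.20, 0.47 and 1.32.

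The clearest division within the chain was between the broad and the alternative isoforms of complex IV. For 6 subunits among the members the array measured both forms. In each of these 6 the broad form lay above the baseline and the alternative form below it on 4 of 4 arrays. All 18 probes of the 6 broad forms had a mean above the line, and all 18 probes of the alternative forms had a mean below it. With SPATA5 and SPATA13 left out of the controls the baseline was lower, and COX6B2 and COX7A1 then stood above it in the mean, at 0.46 and 0.24. The other 4 alternative forms were below the line under every alternative run. A further complex IV pair outside the symbol rule, COXFA4 and COXFA4L2 (formerly NDUFA4 and NDUFA4L2), was not divided in this way. Both of its forms were below the line, with means of -2.78 and -2.82.

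COX4I1, the broad form of subunit 4, had distances of 5.83, 5.35, 4.44 and 4.43 on replicates 1 to 4. COX4I2, the form found mainly in lung and linked to low oxygen, had -2.45, -3.64, -3.53 and -3.23. No array brought the forms of subunit 4 together. COX6A1 had 5.79, 5.28, 3.90 and 4.29, and its heart and skeletal muscle counterpart COX6A2 had -3.65, -3.50, -3.59 and -2.78. COX7A2 had 4.29, 3.83, 2.41 and 2.91, and the muscle form COX7A1 had -2.73, -1.58, -2.51 and -1.55. The muscle forms thus lay below the line by over 1 log2 unit on every array. COX7A2L, a related protein that joins complexes III and IV into supercomplexes, was above it on 4 of 4 arrays, with a mean of 4.26 ± 0.75 (SD, n = 4).

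The remaining pairs set a broad form against one known from testis. COX6B1 had distances of 5.68, 4.91, 3.58 and 4.58 on replicates 1 to 4, and COX6B2 had -1.65, -1.67, -2.57 and -1.59. COX7B had 4.89, 4.42, 3.55 and 3.25, and COX7B2 had -3.22, -3.75, -3.80 and -4.07. COX8A had 4.39, 3.66, 3.05 and 2.42, and COX8C had -1.94, -4.00, -3.52 and -3.38. None of these testis forms came within 1 log2 unit of the line, and COX6B2 was the nearest of the 6 alternative forms in the mean, at -1.87 ± 0.47 (SD, n = 4). The subunits with a single form among the members, COX5A, COX5B, COX6C and COX7C, were all detected, with mean distances from 1.87 to 4.69.

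**Figure D2:**
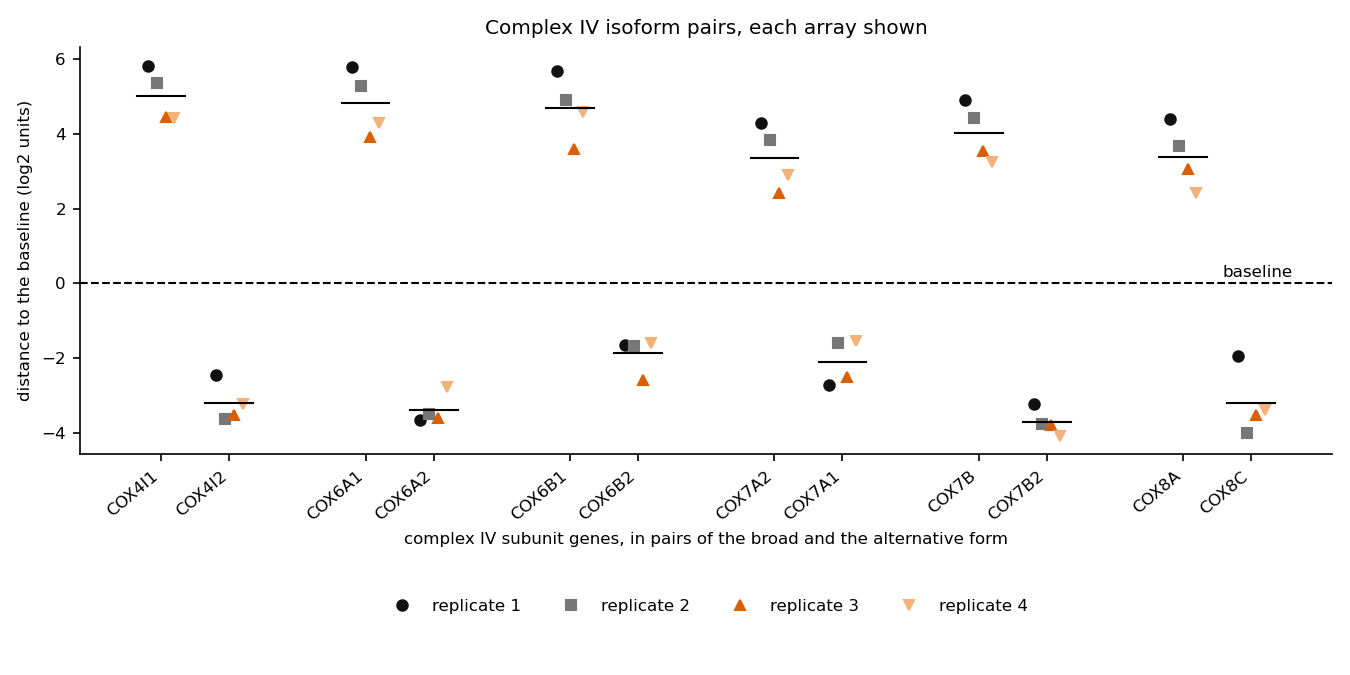
Distance to the baseline (log2 units, vertical axis) of the broad and the alternative form of 6 complex IV subunits, with 1 symbol for each of the 4 replicate arrays, a bar at their mean and a dashed line at the baseline. Every symbol of a broad form lies above the line, the lowest at 2.41, and every symbol of an alternative form lies below it, the highest at -1.55.

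Genes typical of the tissues of these forms were read on the same arrays. None of 12 heart and skeletal muscle genes was detected, and their mean distances ran from -3.31 to -1.18. Of 12 testis germ cell genes 1 was detected, SYCP3, a protein of the synaptonemal complex, at 1.86 ± 0.89 log2 units (SD, n = 4). Of 10 genes widely used as markers of the low-oxygen response 7 were detected and 4 were above the line on all arrays, against 52.7% and 45.0% of all named genes. The detected ones were NDRG1 at 4.58 ± 0.89, P4HA1 at 3.57, KDM3A at 3.37, ADM at 2.29, VEGFA at 1.24, BNIP3 at 0.805 and PDK1 at 0.18. CA9, a carbonic anhydrase, EGLN3, a prolyl hydroxylase, and ANKRD37 were below the line, at -2.66 ± 0.58, -2.52 ± 0.73 and -1.31 ± 1.12. COX4I2 lay below the line in the same cells.

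Some subunits fall outside the symbol rule. RefSeq now names NDUFA4, a protein long listed under complex I and found in complex IV, COXFA4. Its distances were -2.44, -3.50, -2.42 and -2.75 on replicates 1 to 4, and none of its 3 probes was above the line. Its paralogue COXFA4L2 (formerly NDUFA4L2) was also below, at -2.82 ± 0.74 (SD, n = 4). NDUFAB1, the mitochondrial acyl carrier protein that is part of complex I, was at 2.83 ± 0.73. DMAC2L, once described as a factor of the ATP synthase, was at -0.05 ± 0.67. None of the 13 subunits encoded in mitochondrial DNA had a matched probe, so they were not analysed here.

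A gene's mean can hide probes that disagree. All probes were above the baseline in 49 of the 82 members, some in 25 and none in 8, which is 59.8%, 30.5% and 9.76%. Over all named genes the same shares were 34.1%, 25.5% and 40.4%. Complex IV was the clearest, with 11 members whose probes were all above, 6 with none above and no member between. In complex I 13 of 36 members had probes on both sides of the line, and in complex V 7 of 17.

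NDUFA13 (also known as GRIM-19), an accessory subunit of complex I, had probe means of -2.59, -3.22 and 3.36 log2 units from the baseline, so its detection rested on 1 probe. NDUFB11 had -0.59, -1.26 and 4.68, and NDUFB3 had -1.89, -1.13 and 3.63, again with a single probe above. UQCRB, a small subunit next to the ubiquinone site, had 3.38, -1.64 and -1.52. These genes, together with ATP5PB (4.09, -0.18 and -1.90) and NDUFA8 (-3.36, -2.95 and 2.08), fell below the line where the median of the probes was used in place of their mean. NDUFS1 and SDHB each had 1 probe far below the line, at -3.78 and -3.44, with their other probes above it. Sequences and positions of the probes were not used here, so exons and isoforms were not told apart.

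**Figure D3:**
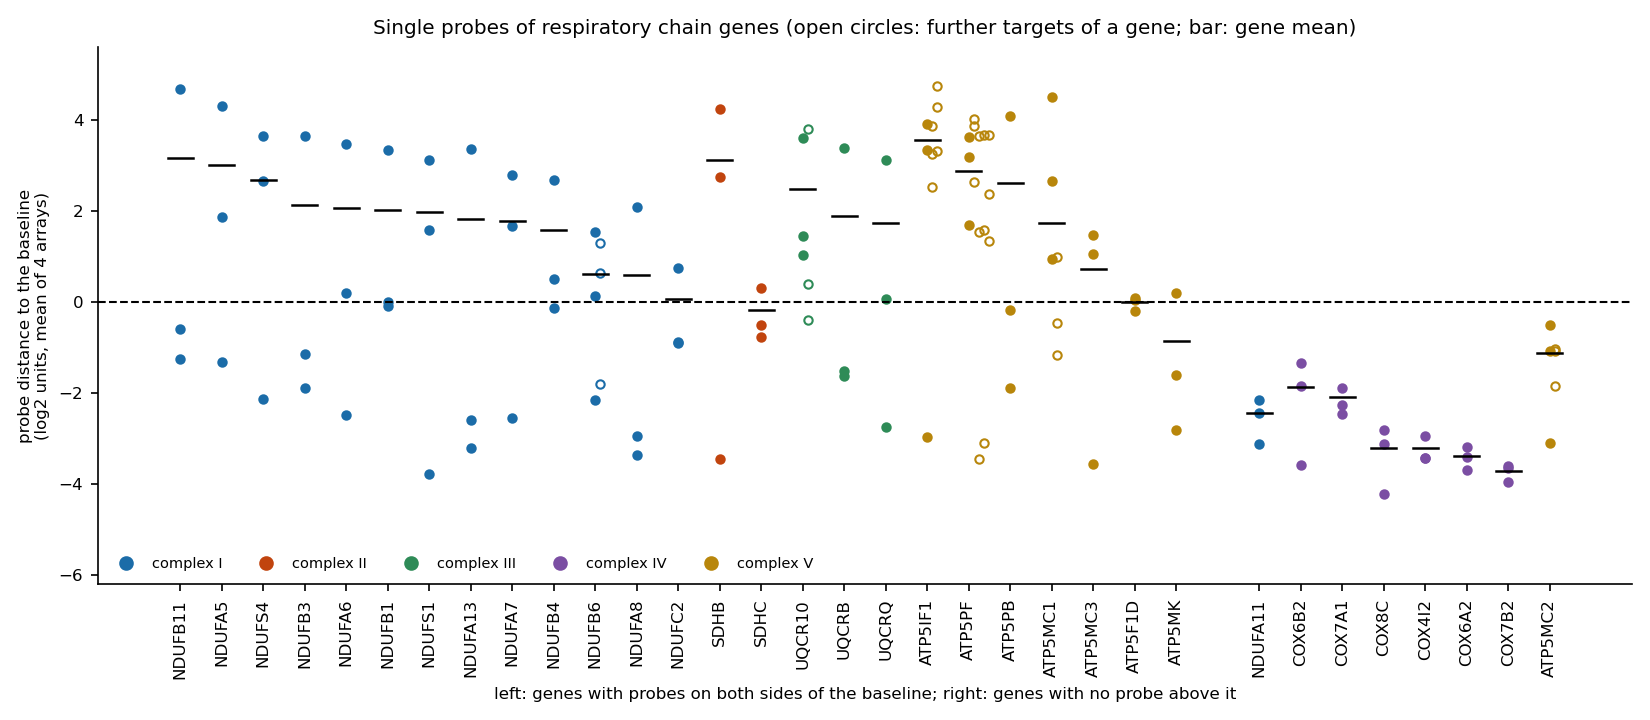
Mean distance to the baseline over 4 arrays (log2 units, vertical axis) of every probe of the 25 members with probes on both sides of the baseline (left) and of the 8 members with no probe above it (right). Colours mark complexes, open circles mark further targets of a gene, bars mark the gene's mean and the dashed line is the baseline. Probes of 1 gene lie up to several log2 units apart, as for SDHB, from -3.44 to 4.25.

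Levels on single arrays followed the pairs named above. The median level of the 82 members was 13.36, 13.31, 12.79 and 12.76 log2 units on replicates 1 to 4, while the median over all named genes was 10.46, 10.38, 10.45 and 10.34. Of the members 47 (57.3%) had both of replicates 1 and 2 above both of replicates 3 and 4, against 18.3% of all named genes and 30.7% of all detected genes. After quantile normalization of the 4 arrays together the count was 33 (40.2%), against 13.9% and 17.4%. The median difference of the pairs in level was 0.37 for the members and -0.08 for all named genes as deposited, and 0.23 and -0.03 after joint normalization. The part of the separate normalization, or of the cultures, in this difference was not tested.

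The direction was alike in every complex, with median pair differences in level of 0.37 in complex I, 0.29 in II, 0.43 in III, 0.39 in IV and 0.33 in V. Of the 11 undetected members 9 were lower on replicates 1 and 2, with a median difference of -0.38, and after joint normalization 6 of the 11 were lower, with a median of -0.19. As deposited, the control genes were lower on replicates 1 and 2 too, with mean levels of 7.09, 7.26, 7.84 and 7.70 on replicates 1 to 4. The same share over all undetected genes was not counted, so a trait of these members cannot be told apart from one of undetected genes in general. As deposited, the highest difference in favour of replicates 1 and 2 was that of NDUFB5, a membrane arm subunit of complex I chosen here after its values were seen, with levels of 13.15, 13.20, 11.97 and 12.55. COX6A2 had the difference farthest below 0, at -1.19. NDUFB6 had levels of 11.35, 10.99, 10.42 and 10.11, while the baseline was higher on replicates 3 and 4 than on 1 and 2. The median SD over the arrays was 0.33 for a member's level, against 0.43 over all named genes, and 0.76 for a member's distance, against 0.63.

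**Figure D4:**
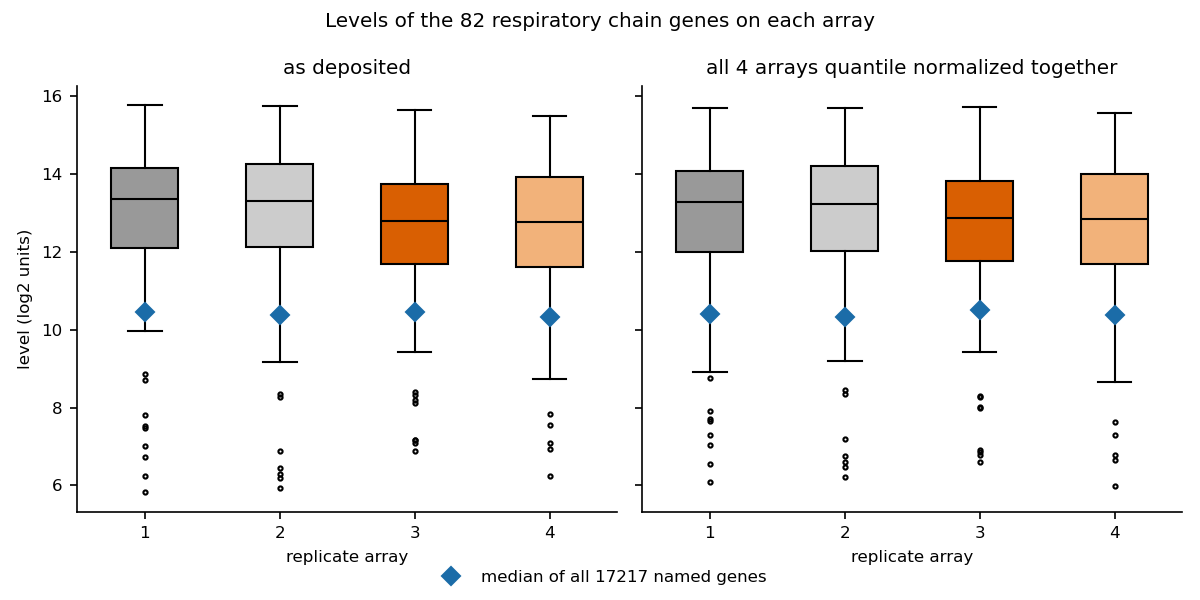
Levels (log2 units, vertical axis) of the 82 respiratory chain genes on the 4 replicate arrays, as deposited (left) and after quantile normalization of all arrays together (right). Boxes span the quartiles with a line at the median, whiskers reach the furthest gene within 1.5 box heights, dots are genes beyond them, and diamonds are the median of all 17217 named genes. As deposited, the members' median is 13.36 and 13.31 on replicates 1 and 2 and 12.79 and 12.76 on replicates 3 and 4, and after joint normalization it is 13.29 and 13.22 against 12.87 and 12.84.

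Proteins that build the complexes were also measured. Of 61 assembly factors listed 49 were matched, and 43 of these were detected with a median distance of 2.08 log2 units, against 52.7% and 0.26 over all named genes. By complex the detected factors were 16 of 17 for complex I, 2 of 3 for II, 5 of 5 for III, 17 of 19 for IV and 3 of 5 for V. SDHAF2, which inserts the flavin into SDHA, was at 3.73 ± 0.65 (SD, n = 4), and SDHAF4 was at -0.83 ± 0.96. For complex V, ATPAF1, which assists the beta subunit, was at 4.28 ± 0.70, and its partner for the alpha subunit, ATPAF2, was at -1.32 ± 0.27. Both clients of these factors, ATP5F1B and ATP5F1A, lay over 4 log2 units above the line on every array.

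Of the 13 citric acid cycle enzymes measured beside succinate dehydrogenase 13 were detected and 12 were above the line on all 4 arrays. The shares over all named genes were 52.7% and 45.0%. Their median distance was 3.91 log2 units, against 0.26 over all named genes. DLD was the lowest of them, at 0.34 ± 0.66 (SD, n = 4), and did not pass the limma test (adjusted p = 0.344). Regulators of respiratory chain genes were all detected as well, 12 of 12, with a median of 1.92, and 9 were above the line on all 4 arrays. NRF1 and GABPA, transcription factors known for binding the promoters of these genes, were at 2.46 ± 0.51 and 2.17 ± 1.00 (SD, n = 4), and YY1 was at 3.73 ± 0.66. TFAM, which packs and transcribes mitochondrial DNA, was at 3.07 ± 0.78. The coactivator PPARGC1A was near the line, at 0.05 ± 0.48, and did not pass the limma test (adjusted p = 0.853), nor did the nuclear receptor ESRRA at 0.04 ± 0.77 (adjusted p = 0.861).

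Since those factors were detected, the promoters of the members were searched for their letters. RefSeq promoter windows of 300 bases, from 250 before to 50 after a gene's start in GRCh38.p14, were at hand for 68 of the 82 members, 81 windows in all, since 9 members had several starts whose windows can overlap. The letters searched on both strands were GCGCATGC for NRF1, CCGGAAGT for ETS factors such as GABPA, AAGATGGC for YY1, GGGCGG for SP1 and TATAAA for the TATA box. A match is a match of letters and does not show that a factor binds.

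The NRF1 letters stood in 18.5% of the member windows, against 3.1% of all 35116 windows and 5.1% of the windows of genes above the baseline. The YY1 letters stood in 13 of 81 member windows, against 2.9% and 5.3%, and the ETS letters in 14.8%, against 4.1% and 8.0%. At least 1 of the 3 stood in 40.7%, against 9.4% and 16.8%. The SP1 letters did not set the members apart from other detected genes in the same way, with 61.7% against 45.0% and 67.3%, and the TATA letters stood in 8.6%, against 11.5% and 6.0%. By complex, at least 1 of NRF1, ETS and YY1 stood in 34.2% of 38 windows in complex I, 66.7% of 3 in II, 57.1% of 7 in III, 18.8% of 16 in IV and 64.7% of 17 in V. These shares are descriptions of the sequence and were not tested.

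**Figure D5:**
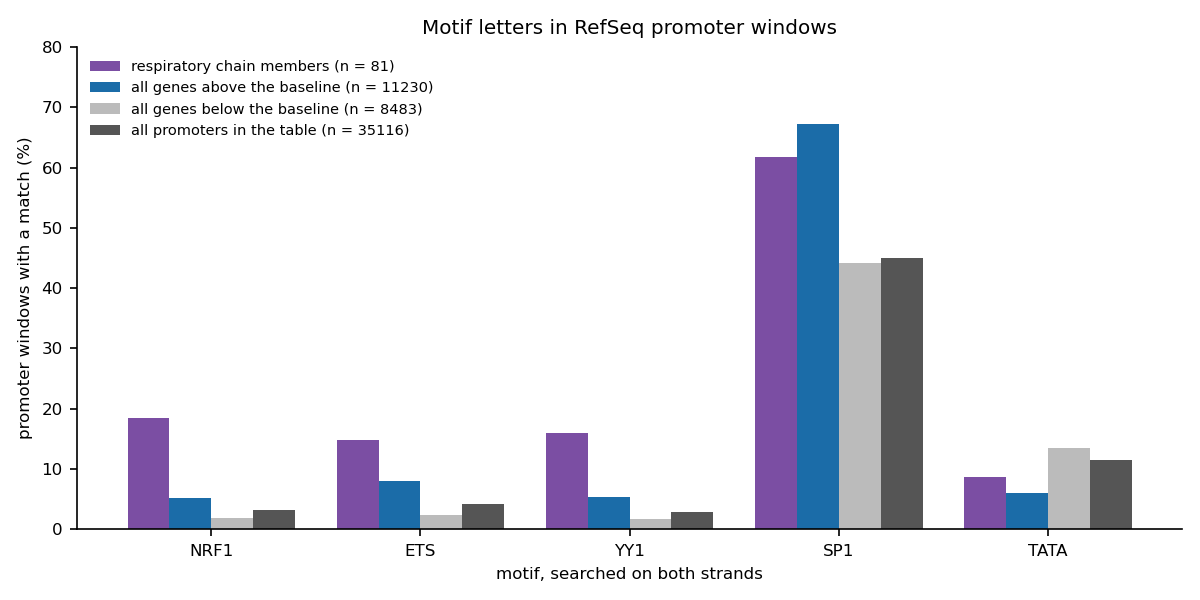
Share of promoter windows (%, vertical axis) that hold the letters of each of 5 motifs, for the respiratory chain members, for all genes above or below the baseline on the arrays and for all windows in the RefSeq table, with the number of windows in the key. For NRF1 the members stand at 18.5% and all windows at 3.1%, while for SP1 the members stand at 61.7% and genes above the baseline at 67.3%.

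Windows of 4 of the 6 members that hold letters of at least 2 of these 3 factors in 1 window are printed to show how they lie, from 220 bases before to 30 after the start, 5′ to 3′ on the gene's own strand. Capitals mark the NRF1, ETS, YY1, SP1 or TATA letters on either strand, and adjoining matches run together. They come from chr1:17054003-17054252 (minus strand) for SDHB, chr11:112086653-112086902 (plus) for SDHD, chr19:1383687-1383936 (plus) for NDUFS7 and chr2:97645842-97646091 (plus) for COX5B. SDHB and NDUFS7 hold NRF1 and YY1 letters, and SDHD and COX5B hold NRF1 and ETS letters.
SDHB: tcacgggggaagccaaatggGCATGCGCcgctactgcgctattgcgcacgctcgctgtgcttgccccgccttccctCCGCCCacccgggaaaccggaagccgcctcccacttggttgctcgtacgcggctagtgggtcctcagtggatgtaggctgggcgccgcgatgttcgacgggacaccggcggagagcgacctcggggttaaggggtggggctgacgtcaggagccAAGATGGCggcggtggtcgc
SDHD: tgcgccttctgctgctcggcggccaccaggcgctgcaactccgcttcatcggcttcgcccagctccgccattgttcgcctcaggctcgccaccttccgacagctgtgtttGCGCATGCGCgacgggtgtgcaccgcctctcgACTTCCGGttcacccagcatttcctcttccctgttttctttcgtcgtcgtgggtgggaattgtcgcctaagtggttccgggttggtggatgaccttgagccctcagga
NDUFS7: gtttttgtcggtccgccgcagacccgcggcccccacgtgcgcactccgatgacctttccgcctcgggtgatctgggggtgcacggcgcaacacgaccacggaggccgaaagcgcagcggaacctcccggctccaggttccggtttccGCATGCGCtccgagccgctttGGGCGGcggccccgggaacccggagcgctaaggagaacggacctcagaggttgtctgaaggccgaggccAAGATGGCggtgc
COX5B: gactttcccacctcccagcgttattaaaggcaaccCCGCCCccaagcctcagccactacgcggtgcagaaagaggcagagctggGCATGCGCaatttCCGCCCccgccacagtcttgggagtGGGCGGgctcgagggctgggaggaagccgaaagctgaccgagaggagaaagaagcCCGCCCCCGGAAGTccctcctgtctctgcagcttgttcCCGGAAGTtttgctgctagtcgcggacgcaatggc

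The isoforms of complex IV could be set side by side at their promoters in the same way. Windows were at hand for 4 of the 6 alternative forms, COX6A2, COX6B2, COX7B2 and COX8C. None held NRF1, ETS or YY1 letters. Their median ratio of observed to expected CpG was 0.452, against 0.826 over the member windows and 0.579 over all windows, though COX6B2 alone was at 0.799. Over the windows of all genes below the baseline the ratio was 0.480, and 5.6% held letters of at least 1 of the 3. Over the 9 windows of all undetected members these values were 0.799 and 33.3%. The low values are thus near those of undetected genes in general. Of the broad forms, COX6A1 held NRF1 letters and COX8A held ETS letters, while the windows of COX4I1, COX6B1, COX7A2 and COX7B held none of the 3. The pairs of COX6A and COX8 are printed because the detected and the undetected form differ there in these letters. They lie at chr12:120437893-120438142 (plus strand) for COX6A1, chr16:31428331-31428580 (minus) for COX6A2, chr11:63974400-63974649 (plus) for COX8A and chr14:93346962-93347211 (plus) for COX8C, with capitals as before. The shown stretch of COX6A1 holds 18 CpG pairs and that of COX6A2 holds 5. The shown stretch of COX8A holds 15 and that of COX8C holds 10.
COX6A1: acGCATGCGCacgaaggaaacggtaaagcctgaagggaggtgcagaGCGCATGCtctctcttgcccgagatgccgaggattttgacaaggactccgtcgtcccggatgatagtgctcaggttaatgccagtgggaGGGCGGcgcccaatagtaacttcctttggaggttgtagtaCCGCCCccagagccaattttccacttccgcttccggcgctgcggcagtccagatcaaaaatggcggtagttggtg
COX6A2: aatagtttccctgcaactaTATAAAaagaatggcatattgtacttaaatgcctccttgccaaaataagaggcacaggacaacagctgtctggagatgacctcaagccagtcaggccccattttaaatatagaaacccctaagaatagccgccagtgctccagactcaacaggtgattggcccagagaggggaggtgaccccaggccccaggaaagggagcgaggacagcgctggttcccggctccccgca
COX8A: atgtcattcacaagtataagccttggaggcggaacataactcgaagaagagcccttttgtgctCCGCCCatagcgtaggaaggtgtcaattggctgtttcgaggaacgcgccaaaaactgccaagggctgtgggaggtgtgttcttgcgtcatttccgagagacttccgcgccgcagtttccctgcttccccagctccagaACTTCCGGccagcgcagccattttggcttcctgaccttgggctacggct
COX8C: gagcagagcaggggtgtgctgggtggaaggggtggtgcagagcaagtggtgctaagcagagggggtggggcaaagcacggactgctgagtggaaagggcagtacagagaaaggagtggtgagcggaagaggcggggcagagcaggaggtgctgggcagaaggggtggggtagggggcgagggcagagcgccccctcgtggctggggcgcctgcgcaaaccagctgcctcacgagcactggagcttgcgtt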

How the data were processed

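HEK293 RNA was measured on 4 one-colour arrays, 4 labelled biological replicates of 1 group. The authors deposited 1 log2 value for each of 71998 probes and array. The methods state that scanned images were quantified with the maker's software and log2 transformed, and the submitters' processing notes name RMA. Sorted values of replicates 1 and 2 lay within 0.01 log2 units at 99.97% of ranks, those of replicates 3 and 4 at 99.99%, and those across pairs at 1.22% to 1.25%, which is the form of quantile normalization within each pair. No raw intensities were used, so saturation and spot background were not examined, and the number of arrays limits the precision.

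Accessions in the probe names were matched without versions to a RefSeq table of GRCh38.p14, which named 19125 of 24000 targets. Probes of a target were averaged on the linear scale before log2, and targets of a gene were averaged after it. Distances were tested with limma 3.58 in R 4.3 (one-sided, Benjamini-Hochberg at 0.05 over 17217 genes). Its prior degrees of freedom were infinite, so the standard error was 0.351 for every gene, and any error in the baseline of an array is shared by all its genes. With 4 arrays the smallest p of an exact sign-flip test (one-sided) is 0.0625. The fit was tested on simulated data with independent noise. The baseline error shared within an array and the array pairs were not part of that simulation.

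Members and lists were chosen with earlier results of these data known. Genes were named where they were undetected, above the line on some arrays, core subunits, members of an isoform pair, divided between probes, or in a list of 12 or fewer. Other members were named after their values were seen. The values of 1 member are not reported here by name, though it is included in every count. Of the 11 control genes of the study, PYY2 was not matched. Alternatives changed the baseline, the controls, the probe and target summaries, the normalization, the limma prior and the arrays included. The alternative with each pair of arrays alone was added after seeing the data. Promoter windows came from RefSeq and were searched with Python 3.11 and pandas 2.3, and figures were drawn with matplotlib 3.10.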

Additional observations from a re-analysis of the deposited data

Results flagged for a closer look

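On single members, 1 array stood away from the others in 2 of 82 cases by Dixon's ratio of the gap to the range, where chance gives about 1 in 20. For COX6B2 the distance on replicate 3 was -2.57 against -1.67 to -1.59 on the other arrays (ratio 0.920). For ATP5MC2 the distance on replicate 3 was -2.36 against -0.87 to -0.60 (ratio 0.845). Both genes were below the baseline on every array, so replicate 3 did not set their side. On levels in place of distances 12 of 82 members passed the same ratio. The distances share the baseline of each array, so the 82 ratios are not independent draws to set against 1 in 20. The same share over all named genes was not computed.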

How the results depend on the processing

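Counts of detected members, in all and by complex, and of limma calls stayed within 1.5 times their value under every alternative run. Except in complex IV, the number of members left no room for a rise past that limit, so only a fall could have broken it. Detected members ran from 67 to 77 of 82 and limma calls from 53 to 75. The shares of all named genes under the altered baselines and controls were not computed. Whether the members stood apart from them there was not tested. Of the 82 members, 62 stayed above and 5 below the baseline under 17 alternatives, and 15 changed side in at least 1. The cause of these changes was not tested. ATP5MC3 lost its limma call under 6 alternatives that left its mean above the baseline. It also lost the call where its mean fell below the baseline: with 3 SD, with averaged log2 probe values and with replicates 3 and 4 alone. With a baseline of 3 SD 14 other members lost theirs. With their means still above the baseline, NDUFB3, NDUFS1, UQCRB and UQCRQ lost the call with averaged log2 probe values. With the median of the probes ATP5MG, NDUFA6, NDUFB1, NDUFB4 and UQCRQ lost it. ATP5MC1 lost it with the lowest target, and UQCRFS1 with replicates 3 and 4 alone. Members whose mean fell below the baseline are given further on. The median distance of 3.04 log2 units was 4.35 with a baseline of 1 SD and 1.72 with 3 SD, 5.36 without SPATA5 and SPATA13 among the controls, 5.09 with Y-linked and 5.12 with olfactory receptor controls. With 1 SD the distances of ATP5F1D, ATP5MC2, ATP5MK and SDHC turned to 1.32, 0.20, 0.47 and 1.14. With 3 SD those of ATP5MC3, NDUFA8, NDUFB6 and NDUFC2 turned to -0.59, -0.73, -0.71 and -1.25. Without SPATA5 and SPATA13, ATP5F1D, ATP5MC2, ATP5MK, SDHC, COX6B2 and COX7A1 turned to 2.33, 1.21, 1.48, 2.15, 0.46 and 0.24. With Y-linked controls, ATP5F1D, ATP5MC2, ATP5MK, SDHC and COX6B2 turned to 2.05, 0.93, 1.21, 1.88 and 0.18, and with olfactory receptor controls to 2.08, 0.96, 1.24, 1.91 and 0.21. Averaging log2 probe values turned ATP5F1D to 0.32, SDHC to 0.011, ATP5MC3 to -0.015, NDUFA13 to -0.48, NDUFA8 to -1.08 and NDUFC2 to -0.012. The median of the probes turned ATP5F1D to 0.13, SDHC to 0.003, ATP5PB to -0.046, NDUFA13 to -2.31, NDUFA8 to -2.69, NDUFB11 to -0.42, NDUFB3 to -0.997 and UQCRB to -1.23. With each array left out in turn, NDUFC2 ran from -0.084 to 0.151, SDHC from -0.39 to 0.020 and ATP5F1D from -0.29 to 0.20. Replicates 1 and 2 alone turned ATP5F1D to 0.51, and replicates 3 and 4 alone turned ATP5MC3 to -0.048, NDUFB6 to -0.24 and NDUFC2 to -0.12. No alternative run brought COX4I2, COX6A2, COX7B2, COX8C or NDUFA11 above the baseline in the mean. Broad and alternative isoforms of complex IV lay on the same side as reported except COX6B2 and COX7A1, as given. No paired analysis was possible because the design holds 1 group.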
